A study of Lotus japonicus with 14 samples.

Results

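Gene models of the legume Lotus japonicus were collected here that differed between the mutant line apn1 and the wild type line MG20 in every matched pair of libraries. Members were chosen by their measured CPM in all 14 libraries. A model was taken when its level was at least 1.5-fold apart, in the same direction, in all 7 pairs, and when its mean was at least 1 CPM in the line where it was higher. CPM is the read count scaled to a common library total, here with TMM factors, and 0.1 CPM was added to each value before a ratio was formed. Of 38476 gene models, 28444 reached the mean of 1 CPM, and 25 of these met the rule. Of the 25, 18 were higher in apn1 (0.0633% of the models considered) and 7 were lower (0.0246%). The rule used the difference between the lines, so that difference is given as a description and carries no test.

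The series followed root nodule formation in 14 RNA libraries, 1 per condition. The wild type was MG20, of Miyakojima origin, and the mutant was apn1, labelled Fix-. Both lines grew in vermiculite without added nitrogen. Each line had 1 library from uninoculated roots and 6 from nodule primordia and young nodules cut from roots that had been inoculated with Mesorhizobium loti. The inoculated strain was MAFF303099 or TONO, and nodules were taken 5, 7 and 10 days after inoculation (dai) with each strain. A pair is the MG20 and the apn1 library of the same tissue, strain and day. The sample titles and the study design spell the mutant differently, and the spelling of the design, apn1, is used. The labels do not give the parental accession of apn1 or any backcross, so the mutation and any other difference between the lines cannot be told apart. The labels also do not say how many plants gave each library.

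Root nodules are organs that legumes form with rhizobia, soil bacteria that fix nitrogen inside nodule cells. Their formation starts with signalling from the bacteria, goes on with cell division in the root cortex and infection of the dividing cells, and ends with nitrogen fixation. A Fix- plant forms nodules that do not fix nitrogen effectively, and APN1 is known as a gene for a nodule-induced aspartic peptidase. The RNA counts used here do not show whether apn1 nodules fixed nitrogen with either strain. Roots that have never met rhizobia carry no nodules, so a difference that is present in the roots too is not limited to nodule tissue.

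The gene models carry identifiers with no gene names. None of the identifiers matched the gene table of the assembly LjGifu_v1.2 (0 matched), so no name, role or sequence is given for a member, and neither the gene mutated in apn1 nor markers of root and nodule tissue were checked. Library totals lay between 33981124 and 58395305 counts. The 4 libraries of 10 dai held at most 37261815 counts and all others at least 48180653. For a count of 0 the upper limit was taken as 3 counts, or 0.0462 to 0.111 CPM depending on the library, which covers counting error only. In tissue RNA, fewer cells of a type and less RNA per cell cannot be told apart. A read count also depends on whether reads map to a model, so a difference in sequence and a difference in RNA level cannot be told apart from these counts.

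Taken over each list, the lower members differed more between the lines than the higher ones. The median log2 difference between apn1 and MG20 over the 7 pairs ran from 0.80 to 4.61 among the 18 higher members, with a middle value of 1.58. Among the 7 lower members it ran from -6.56 to -1.02, with a middle value of -3.38. Of these 7, 5 lay on 1 contig, where adjacent models may share reads. The other 2 had medians of -2.71 and -1.02, in size within the range of the higher members. A median difference of at least 4-fold was found for 5 of the 18 higher members and for 6 of the 7 lower ones. At least 2-fold in every single pair was reached by 7 higher and 6 lower members. Across all conditions together, the 7 apn1 libraries and the 7 MG20 libraries did not overlap in CPM for 11 higher and 6 lower members. The rule favours such a separation, and its share among all considered models was not counted, so here and below it is a description.

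**Figure D1:**
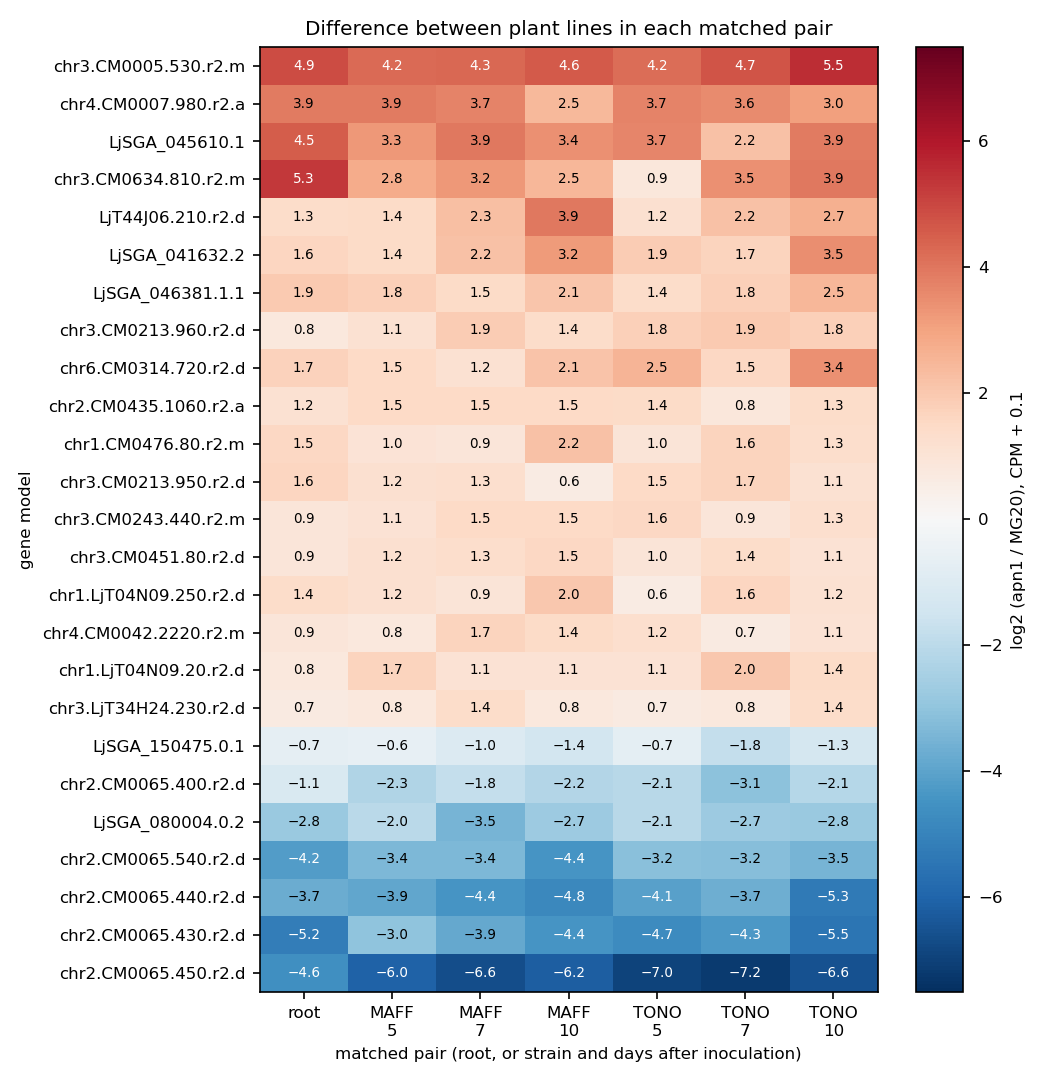
Log2 ratio of apn1 to MG20 (CPM plus 0.1) for each of the 25 gene models (vertical axis) in the 7 matched pairs (horizontal axis: root, or strain with days after inoculation). Red marks models higher in apn1 and blue models lower. The strongest colours are at the top, chr3.CM0005.530.r2.m, and at the bottom, chr2.CM0065.450.r2.d, and each row keeps 1 colour because the rule required it.

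Of the 7 members that were lower in apn1, 5 lay on 1 contig, chr2.CM0065, by the contig written in the identifier. They were the models 400, 430, 440, 450 and 540. The model chr2.CM0065.450.r2.d had 814 counts in the MG20 root and 2273 to 7671 counts in the 6 MG20 nodule libraries, with a median of 4216.5. The apn1 libraries held 30 counts in the root and 26 to 66 in the nodules, with a median of 48. The lowest MG20 library was far above the highest apn1 library. The log2 difference ran from -7.19 in the TONO pair at 7 dai to -4.62 in the roots, with a median of -6.56, and all apn1 libraries together held 0.977% of the MG20 level.

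In MG20 this model was higher in each of the 6 nodule libraries than in the root. Its level was 15.1 CPM in the MG20 root and 62.0 to 165 CPM in the nodules. In apn1 it was 0.519 CPM in the root and 0.401 to 1.22 CPM in the nodules. The mean log2 nodule level minus the root level was 2.66 in MG20 and 0.69 in apn1, from 1 root library per line, and the difference between these 2 values was not tested.

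The neighbouring model chr2.CM0065.430.r2.d had 320 counts in the MG20 root and 90 to 227 in the MG20 nodules, against 4 in the apn1 root and 2 to 5 in the apn1 nodules. Its median log2 difference was -4.42, and its apn1 level was 1.67% of that of MG20. Unlike model 450, it was lower than in the root in 5 of the 6 MG20 nodule libraries. The model chr2.CM0065.440.r2.d lies between them. It had 77 counts in the MG20 root and 55 to 116 in the nodules, 623 in all. The apn1 root held 1 count of it, with 0 in each of the 6 nodule libraries. The ratio of the pooled levels, MG20 over apn1, was 648, with an exact 95% interval from counting of 116 to 25631.

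The model chr2.CM0065.540.r2.d had 126 counts in the MG20 root and 46 to 127 in the nodules. In apn1 it had 2 counts in the root and 0 to 6 in the nodules. Its median log2 difference was -3.38 and its apn1 level 3.36% of that of MG20, and it was among the most even of the lower members, with an SD of 0.49 over the 7 pairs. Its apn1 level, at most 0.109 CPM, was near or under the added 0.1 CPM, so this evenness mostly reflects the MG20 level. The model chr2.CM0065.400.r2.d differed least of the 5 members on this contig. It had 58 counts in the MG20 root and 62 to 131 in the nodules, against 25 in the apn1 root and 12 to 22 in the apn1 nodules. Its median log2 difference was -2.15 and its apn1 level 19.1% of that of MG20, with no overlap in CPM between the lines.

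The difference was not shared by the contig as a whole. The contig chr2.CM0065 has 61 gene models, numbered 20 to 760, and 51 of them reached the mean of 1 CPM. The 46 considered models that are no members had a median log2 difference close to no change, at 0.02, and their values ran from -0.72 to 0.70. Only 2 of the 46 were beyond 1.5-fold in their median. The 5 members lie within a stretch of 14 models, with 27 models before it and 20 after it. That stretch holds 9 further models. Among these, chr2.CM0065.410.r2.d had 49 counts in the MG20 root and 41 in the apn1 root, with a median log2 difference over the pairs of -0.53. The model chr2.CM0065.460.r2.d, next to model 450, had an apn1 level of 97.7% of that of MG20 and a median log2 difference of 0.02. The model chr2.CM0065.500.r2.d, inside the same stretch, went the other way in the nodules, with a median of 7065 counts in MG20 and 12253 in apn1. Its root counts were 3333 in MG20 and 2076 in apn1. The model chr2.CM0065.530.r2.d had 309 counts in the MG20 root and 322 in the apn1 root, while its nodule medians were 573.5 and 385. The sources used here do not say whether reads were counted by strand, so reads of overlapping or near-identical models, such as the adjacent 430, 440 and 450, may be shared among them.

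**Figure D2:**
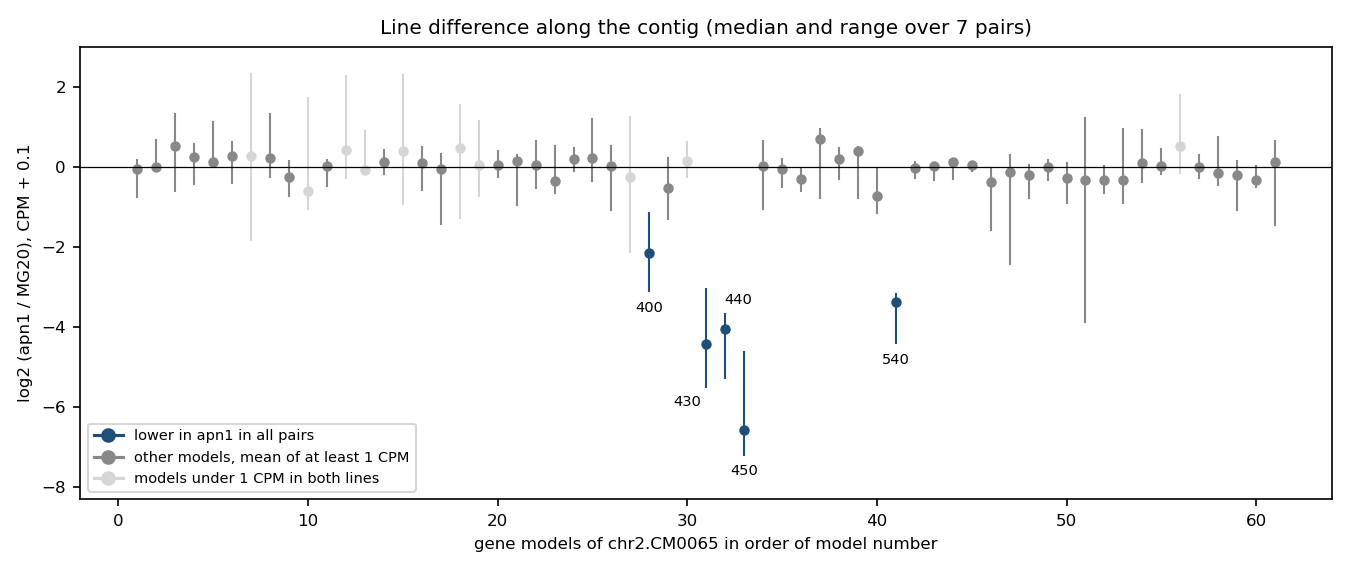
Log2 ratio of apn1 to MG20 (CPM plus 0.1) for the 61 gene models of the contig chr2.CM0065 (horizontal axis: order of the model number in the identifier). Points are medians and bars the lowest to highest of the 7 pairs. The 5 members, between positions 28 and 41, stand below the other considered models of the contig, whose medians lie between -0.72 and 0.70.

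The other 2 lower members carry LjSGA identifiers, which place no chromosome. LjSGA_080004.0.2 had 196 counts in the MG20 root and 33 to 192 in the MG20 nodules. The apn1 root held 26 counts and the apn1 nodules 3 to 39, and its median log2 difference was -2.71. In CPM the lines did not overlap. LjSGA_150475.0.1 had the smallest difference of the lower members. Its level was 4.41 CPM in the MG20 root and 2.53 to 4.33 CPM in the nodules, against 2.70 CPM in the apn1 root and 0.888 to 2.59 CPM in the nodules. These ranges overlapped. Its median log2 difference was -1.02, and its SD over the pairs, 0.44, was the smallest among the lower members. It was also the lower member nearest to the limit, at 1.54-fold in the MAFF303099 pair of 5 dai. The model LjSGA_074602.1 missed the limit most narrowly, at 1.49-fold in the roots, with a median log2 difference of -1.18.

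Among the 18 members that were higher in apn1, chr3.CM0005.530.r2.m stood out by its lack of reads in MG20. It had 0 counts in each of the 7 MG20 libraries. In apn1 it had 166 counts in the root and 74 to 152 in the nodules, with a nodule median of 105.5 and 843 counts in all. Taking 3 counts over the MG20 group as the limit that 0 allows, it was at least 270-fold higher in apn1. Its apn1 level was 2.87 CPM in the root and 1.70 to 4.46 CPM in the nodules. This member already had the largest of the 18 medians, so setting it at its lower bound could not move the middle value, 1.58.

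The model chr4.CM0007.980.r2.a had, with chr3.CM0243.440.r2.m, the highest mean CPM of the higher members. Its level was 1.56 CPM in the MG20 root and 2.24 to 5.72 CPM in the MG20 nodules. In apn1 it was 24.5 CPM in the root and 24.9 to 53.7 CPM in the nodules, and the lines did not overlap. The median difference was 12.9-fold, from 5.48-fold in the MAFF303099 pair of 10 dai to 15.0-fold. LjSGA_045610.1 had 10 counts in the MG20 root and 6 to 30 in the MG20 nodules, against 378 in the apn1 root and 150 to 311 in the apn1 nodules. Its median log2 difference was 3.68, again with no overlap in CPM.

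The model chr3.CM0634.810.r2.m was the most uneven member. In MG20 it had no count in the root and in 4 of the nodule libraries, 1 count in the MAFF303099 nodules of 5 dai and 17 in the TONO nodules of 5 dai. In apn1 it had 224 counts in the root and 15 to 55 in the nodules. Its apn1 level was 3.88 CPM in the root and 0.473 to 1.44 CPM in the nodules. The apn1 mean of 1.28 CPM thus passed the limit of 1 CPM through the root. The log2 difference of this model was 5.31 in the roots, where the apn1 level was highest, and 0.88 in the TONO pair of 5 dai. The SD over the 7 pairs was 1.36.

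**Figure D3:**
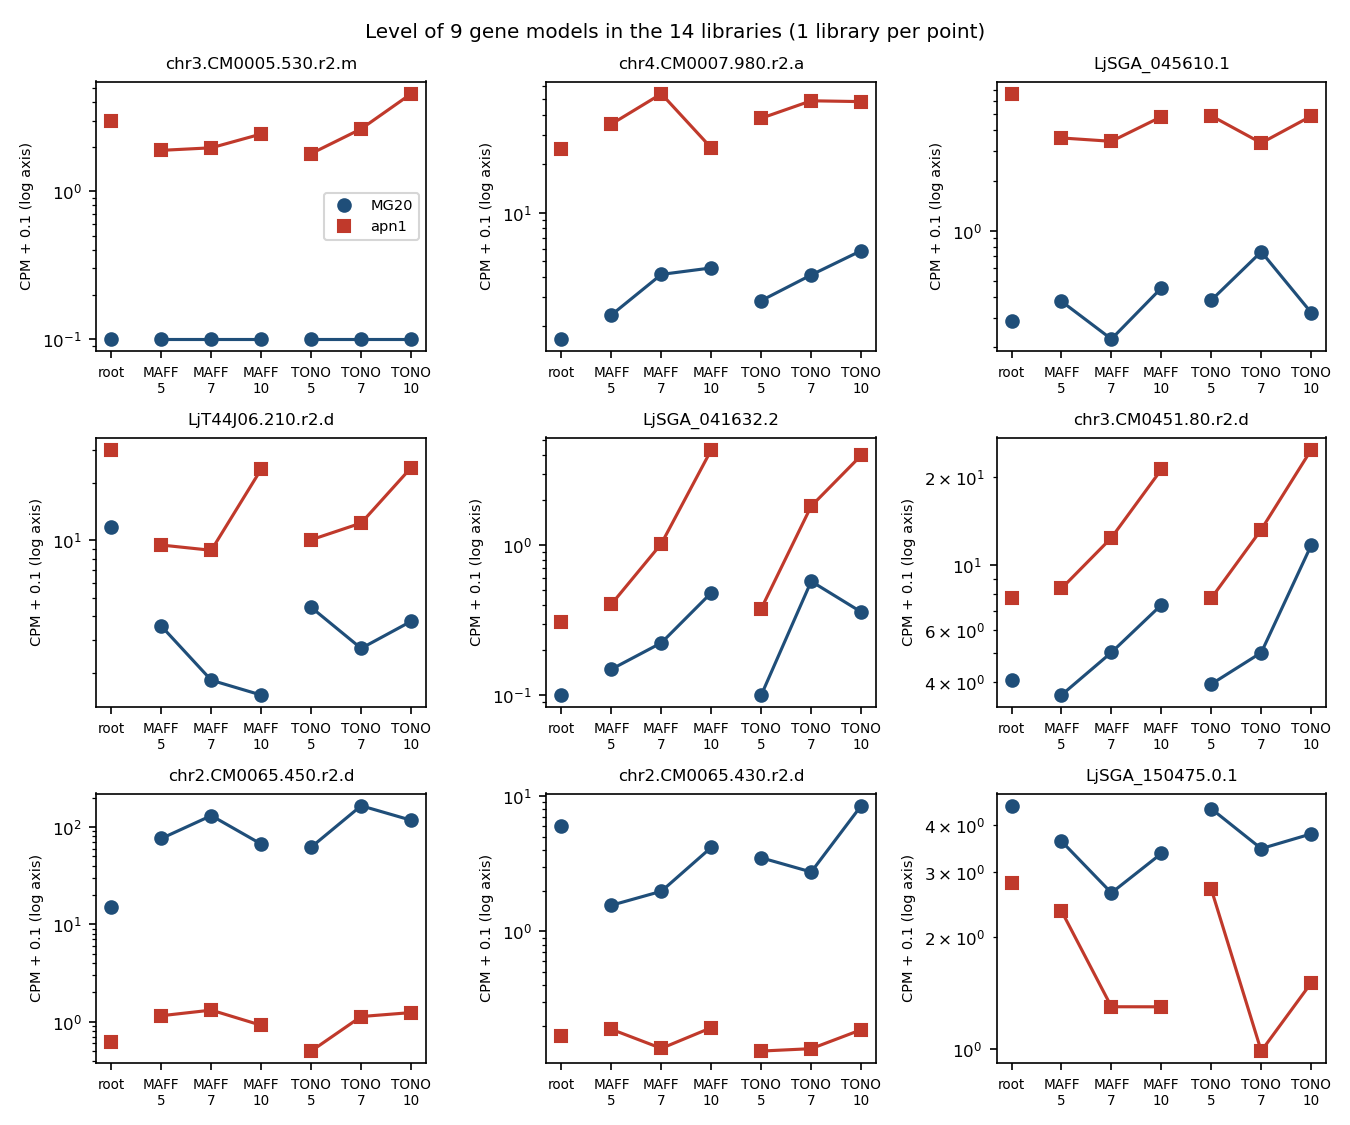
Level (CPM plus 0.1, log axis) of 9 of the 25 gene models in the 14 libraries. Blue circles are MG20 and red squares apn1, each point is 1 library, lines join the days of 1 strain, and the horizontal axis gives the root or the strain with days after inoculation. The members chr2.CM0065.450.r2.d, chr2.CM0065.430.r2.d and LjSGA_150475.0.1 lie lower in apn1 and the other 6 higher, and LjT44J06.210.r2.d is higher at 10 than at 5 dai in apn1 and lower in MG20 with both strains.

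LjT44J06.210.r2.d was second in unevenness among the higher members, with an SD of 0.97. Its level was 11.6 CPM in the MG20 root and 1.44 to 4.34 CPM in the MG20 nodules, against 29.8 CPM in the apn1 root and 8.77 to 24.0 CPM in the apn1 nodules. The ranges overlapped because the MG20 root was above several apn1 nodule libraries. In both lines all 6 nodule libraries were below the root. The log2 difference was 1.42 in the MAFF303099 pair of 5 dai and 3.95 in that of 10 dai, and 1.18 and 2.68 in the TONO pairs of these days.

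LjSGA_041632.2 had few reads in MG20. It had 0 counts in the MG20 root and 0 to 22 in the MG20 nodules, against 12 in the apn1 root and 17 to 134 in the apn1 nodules. The ranges overlapped, and the median log2 difference was 1.92. It was largest at 10 dai, at 3.47 with TONO.

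LjSGA_046381.1.1 was at 2.21 CPM in the MG20 root and 2.03 to 5.64 CPM in the MG20 nodules. In apn1 it was at 8.76 CPM in the root and 10.5 to 15.0 CPM in the nodules, with no overlap and a median log2 difference of 1.80. The model chr6.CM0314.720.r2.d was at 1.56 CPM in the MG20 root and 0.514 to 1.76 CPM in the nodules, against 5.47 CPM in the apn1 root and 3.41 to 9.32 CPM in the nodules. It did not overlap either, and its largest log2 difference, 3.43, was in the TONO pair of 10 dai.

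The adjacent models 950 and 960 of the contig chr3.CM0213 were both higher in apn1. The model chr3.CM0213.950.r2.d was at 2.70 CPM in the MG20 root and 2.98 to 6.28 CPM in the nodules, against 8.48 CPM in the apn1 root and 8.52 to 11.9 CPM in the nodules. The lines did not overlap. It was the higher member nearest to the limit, at 1.51-fold in the MAFF303099 pair of 10 dai, with a median log2 difference of 1.27. Just outside the limit was chr4.CM0432.680.r2.a, at 1.47-fold in the roots and with a median log2 difference of 1.503. The model chr3.CM0213.960.r2.d was at 1.92 CPM in the MG20 root and 0.547 to 1.03 CPM in the nodules. In apn1 it was at 3.32 CPM in the root and 1.84 to 3.75 CPM in the nodules, so that its ranges overlapped through the MG20 root. Its nodules were below the root in all 6 MG20 libraries, and those of model 950 above it.

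The contig chr1.LjT04N09 also held 2 higher members. The model chr1.LjT04N09.20.r2.d was at 1.247 CPM in the MG20 root and 0.698 to 2.76 CPM in the nodules, against 2.22 CPM in the apn1 root and 1.71 to 7.56 CPM in the nodules. The model chr1.LjT04N09.250.r2.d was at 0.595 CPM in the MG20 root and 0.519 to 2.47 CPM in the nodules, against 1.68 CPM in the apn1 root and 1.26 to 5.63 CPM in the nodules. Both overlapped between the lines, and their median log2 differences were 1.10 and 1.20.

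The most even difference was that of chr3.CM0451.80.r2.d, with a median log2 difference of 1.21 and an SD of 0.22. Its level was 3.94 CPM in the MG20 root and 3.51 to 11.6 CPM in the nodules, against 7.61 CPM in the apn1 root and 7.61 to 24.6 CPM in the nodules. The ranges overlapped although the line difference hardly varied, since the level changed with the day in both lines. The second most even higher member, chr2.CM0435.1060.r2.a, had a median log2 difference of 1.42 and an SD of 0.25. It was at 0.763 CPM in the MG20 root and 0.733 to 1.57 CPM in the nodules, against 1.83 CPM in the apn1 root and 2.24 to 3.54 CPM in the nodules, with no overlap. The model chr3.CM0243.440.r2.m was at 12.6 CPM in the MG20 root and 10.3 to 17.5 CPM in the nodules. In apn1 it was at 23.7 CPM in the root and 26.4 to 42.4 CPM in the nodules, without overlap and with a median log2 difference of 1.27.

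The remaining higher members had median log2 differences of 1.30 or less. The model chr1.CM0476.80.r2.m, at 1.30, was at 0.614 CPM in the MG20 root and 0.997 to 1.84 CPM in the nodules, against 1.99 CPM in the apn1 root and 2.25 to 4.95 CPM in the nodules. The model chr4.CM0042.2220.r2.m, at 1.11, was at 1.79 CPM in the MG20 root and 1.60 to 2.92 CPM in the nodules, against 3.43 CPM in the apn1 root and 3.95 to 6.33 CPM in the nodules. Neither overlapped between the lines. The model chr3.LjT34H24.230.r2.d had the smallest median of all members, 0.80. It was at 0.986 CPM in the MG20 root and 1.20 to 2.49 CPM in the nodules, against 1.61 CPM in the apn1 root and 2.18 to 4.07 CPM in the nodules, and these overlapped.

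By the chromosome written in the identifier, 7 of the 18 higher members (38.9%) were on chromosome 3, which holds 9.58% of the models considered. Of the 7 lower members, 5 (71.4%) were on chromosome 2, which holds 9.77% of the models considered, and all 5 were those of chr2.CM0065. No member was on chromosome 5. The LjSGA identifiers make up 39.5% of the models considered and 5 of the 25 members. The 20 members with other identifiers came from 14 contigs, of which 11 held 1 member. Besides chr2.CM0065, the contigs chr3.CM0213 and chr1.LjT04N09 were those with more than 1. The order of contigs along a chromosome cannot be read from the identifiers, so distances between contigs are not given.

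Models next to a member were mostly not apart between the lines. Within 2 considered models on either side, the 20 members had 61 neighbours that are no members, and 4 of these (6.56%) had a median difference of at least 1.5-fold. Among all considered models, 610 (2.14%) had one. The 4 neighbours were LjT44J06.200.r2.d, chr6.CM0314.710.r2.d, chr6.CM0314.750.r2.d and chr2.CM0065.530.r2.d, and they are named because of these values. The model chr6.CM0314.710.r2.d, next to the member 720, had 22 counts in the MG20 root and 23 to 40 in the MG20 nodules. In apn1 it had 141 counts in the root and 47 to 146 in the nodules. It missed the limit in the MAFF303099 pair of 5 dai, where its log2 difference was 0.33. The model chr6.CM0314.750.r2.d had a median log2 difference of 2.05, but its values ran from -0.63 in the roots to 5.81 in the TONO pair of 10 dai.

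The line difference of the members was similar in roots and in nodules when taken over the list. The median log2 difference of the 18 higher members was 1.45 in the roots and 1.41 to 2.04 in the 6 nodule pairs. For the 7 lower members it was -3.71 in the roots and -4.41 to -3.04 in the nodule pairs. Because the rule demanded a difference in every pair, these medians describe the choice. Among all considered models, the share at least 1.5-fold higher in apn1 was 4.39% in the MAFF303099 pair of 5 dai and 20.0% in the TONO pair of 10 dai, and the share at least 1.5-fold lower was 4.14% and 16.6%. The TONO pair of 10 dai was where 7 of the 25 members had their largest difference, and the roots were where 7 had their smallest.

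The rule did not use the contrast of nodules with roots, which was tested with the plant line as a term of the model. Of the 25 members, 7 were higher in nodules and 2 lower by edgeR's quasi-likelihood test at an adjusted p under 0.05. That is 36% of the members, against 43.6% of all 32777 genes tested, of which 20.9% were higher and 22.7% lower. The median log2 change of the members was 0.37, and that of all tested genes 0.01. The 16 other members did not pass. The contrast rests on 1 root library per line. An alternative fit instead gave each line and strain its own nodule level, with terms for day, and both roots 1 shared level. It called 1 member higher and 6 lower, and 3 of the 9 calls were shared. The balance of rises and falls thus changed with the fit. The members were chosen to differ by line, which 1 shared root level ignores, so that fit cannot decide the balance.

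**Figure D4:**
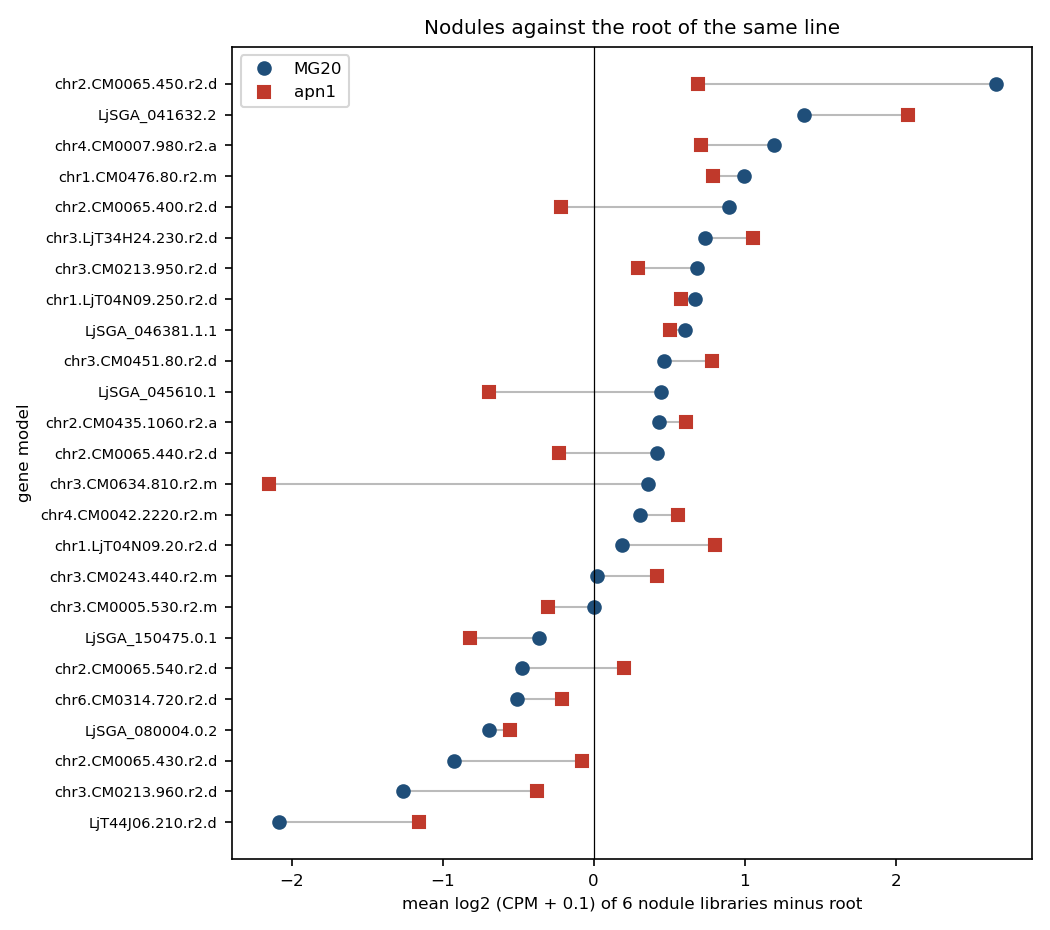
Mean log2 level (CPM plus 0.1) of the 6 nodule libraries minus that of the root library of the same line (horizontal axis) for the 25 gene models (vertical axis). Blue circles are MG20 and red squares apn1, and the line at 0 marks no difference. The values of chr2.CM0065.450.r2.d, 2.66 and 0.69, and of chr3.CM0634.810.r2.m, 0.36 and -2.15, lie far apart between the lines.

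The largest rises in nodules were those of LjSGA_041632.2 and chr2.CM0065.450.r2.d. The log2 change of LjSGA_041632.2 was 2.72 (SE 0.69, adjusted p = 0.00861, edgeR quasi-likelihood test). This call was lost without the apn1 root (log2 change 5.77) and without the apn1 TONO nodules of 5 dai (log2 change 2.10). In both fits the condition was left with 1 MG20 library of 0 counts, so these 2 values are not reliable as sizes. The log2 change of chr2.CM0065.450.r2.d was 1.95 (SE 0.42, adjusted p = 0.0033, edgeR quasi-likelihood test). It was 0.78 without the MG20 root (adjusted p = 0.155 in edgeR), so the rise rests on MG20, where nearly all of its reads were. The largest falls were those of LjT44J06.210.r2.d, at -1.61 (SE 0.35, adjusted p = 0.0038, edgeR quasi-likelihood test), and chr3.CM0213.960.r2.d, at -0.90 (SE 0.25, adjusted p = 0.0149, edgeR quasi-likelihood test). Without the MG20 root these were -1.12 and -0.39, and neither passed (adjusted p = 0.133 and 0.406 in edgeR). The other 5 rises were smaller, from 0.58 for LjSGA_046381.1.1 and 0.63 for chr3.CM0451.80.r2.d to 0.95 for chr4.CM0007.980.r2.a and 0.96 for both chr1.CM0476.80.r2.m and chr3.LjT34H24.230.r2.d. Each of these 5 calls was lost when 1 root or the other was left out, and that of LjSGA_046381.1.1 was lost in 11 of 20 alternatives in all. The call of chr4.CM0007.980.r2.a was lost without the MG20 root (0.73), those of chr3.CM0451.80.r2.d (0.48) and chr3.LjT34H24.230.r2.d (0.81) without the apn1 root, and that of chr1.CM0476.80.r2.m without the MG20 root (0.82) or the apn1 root (1.13). For LjSGA_046381.1.1 the values without these roots were 0.51 and 0.65. The number of members called was 3 without the MG20 root and 4 without the apn1 root.

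In both lines alike, all 6 nodule libraries were above the root for 4 members, which were chr4.CM0007.980.r2.a, chr1.CM0476.80.r2.m, chr3.CM0213.950.r2.d and chr3.LjT34H24.230.r2.d. For LjT44J06.210.r2.d and LjSGA_150475.0.1 all 6 were below it in both lines. The mean log2 level of nodules minus root had opposite signs in the lines for 5 members, and none of these differences between the lines was tested. It was 0.44 in MG20 and -0.69 in apn1 for LjSGA_045610.1, which was above the root in 5 of 6 MG20 nodule libraries and below it in all 6 of apn1. For chr2.CM0065.400.r2.d it was 0.90 in MG20, with all 6 nodule libraries above the root, and -0.22 in apn1, with 4 of 6 below. The values of chr2.CM0065.440.r2.d were 0.42 and -0.23, and those of chr2.CM0065.540.r2.d were -0.48 and 0.20, where apn1 had few counts. All apn1 nodule libraries held 0 counts of chr2.CM0065.440.r2.d, so its value of -0.23 could not have been positive. For chr3.CM0634.810.r2.m the value in apn1 was -2.15. The MG20 root of that model was at 0 counts, so that its value of 0.36 in MG20 could not have been negative.

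Nodule age was not used by the rule either. Between 5 and 10 dai, 8 members rose and 3 fell by edgeR's quasi-likelihood test at an adjusted p under 0.05. These are 44% of the members, against 45.3% of all genes tested, of which 23.1% rose and 22.1% fell. The median log2 change was 0.41 for the members and 0.02 for all tested genes. The largest rise was that of LjSGA_041632.2, whose count in apn1 went from 17 to 134 with MAFF303099 and from 18 to 132 with TONO, and in MG20 from 3 to 13 and from 0 to 7. Its log2 change was 3.69 (SE 0.52, adjusted p = 0.000252, edgeR quasi-likelihood test).

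Both members of the contig chr1.LjT04N09 rose with age. The log2 change was 1.81 for chr1.LjT04N09.20.r2.d (SE 0.23, adjusted p = 0.000122, edgeR quasi-likelihood test) and 1.51 for chr1.LjT04N09.250.r2.d (SE 0.25, adjusted p = 0.000797, edgeR quasi-likelihood test). The model chr3.CM0451.80.r2.d rose by 1.44 (SE 0.13, adjusted p = 1.55e-05, edgeR quasi-likelihood test). These 4 rises passed with each single library left out and under the other alternatives in which they were tested. LjSGA_041632.2 was not tested with a mean count of at least 50. Without the apn1 TONO nodules of 5 dai its change was 5.39, where that condition was left with 1 MG20 library of 0 counts. Of the lower members, the models 430 and 440 of chr2.CM0065 passed as risers. Their change rests on MG20, since apn1 had at most 5 counts of either in any library. For chr2.CM0065.430.r2.d the log2 change was 1.248 (SE 0.35, adjusted p = 0.0144, edgeR quasi-likelihood test), and it did not pass without the MG20 MAFF303099 nodules of 5 dai (0.37), the same of 10 dai (1.47) or the MG20 TONO nodules of 10 dai (0.88). For chr2.CM0065.440.r2.d it was 1.11 (SE 0.41, adjusted p = 0.0476, edgeR quasi-likelihood test) and did not pass in 17 of 19 alternatives. It was 0.23 without the MG20 MAFF303099 nodules of 10 dai, and turned to -0.0790 without the MG20 TONO nodules of 10 dai.

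The largest falls with age were those of LjSGA_080004.0.2 and LjSGA_046381.1.1. The log2 change of LjSGA_080004.0.2 was -1.05 (SE 0.33, adjusted p = 0.0251, edgeR quasi-likelihood test), and it did not pass without the MG20 MAFF303099 nodules of 10 dai (-1.14) or without any one of the apn1 nodule libraries of 5 dai (-0.85 and -0.93) and 10 dai (-0.997 and -0.91). That of LjSGA_046381.1.1 was -0.65 (SE 0.18, adjusted p = 0.0144, edgeR quasi-likelihood test), and it did not pass without the MG20 TONO nodules of 5 dai (-0.52). The calls of chr1.CM0476.80.r2.m (0.68), chr3.CM0243.440.r2.m (0.39) and chr3.LjT34H24.230.r2.d (-0.57) were lost in 12, 11 and 6 of the alternatives. The number of members called was 6 without either MAFF303099 library of 5 dai, and 7 without the MG20 TONO library of 5 dai, the MG20 TONO library of 10 dai or the apn1 MAFF303099 library of 10 dai.

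No member differed between the strains TONO and MAFF303099 at an adjusted p under 0.05 by edgeR's quasi-likelihood test. The same test called 0 of all 32777 genes, which is 0% of them. The fitted log2 differences of the members, TONO minus MAFF303099, ran from -0.48 to 1.32, and the smallest adjusted p among the members was 0.379 in edgeR. At an unadjusted p under 0.05 there were 2 members and 4043 genes of all. DESeq2 called 676 genes and no member. This does not show that the strains act alike. Without the MG20 TONO nodules of 10 dai the same test called 1023 genes, and without those of apn1 568, with no member among them.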

How the data were processed

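RNA was measured in 14 Lotus japonicus libraries, assigned to groups from their titles. Each of the 12 tables that the authors deposited sets a nodule library beside the root of the same line over 38476 gene models and holds read counts and a normalized signal (iDEGES/DESeq, per the file headers). The deposited signal was found to be the count over a library size factor that was set within each table, so it was not used for comparisons. Bowtie2 2.0.2 and DESeq are named in the submitters' processing notes. Not given in the sources used here are genome build, annotation, counting tool and strand use. Each root's counts were identical in all tables that hold it, and each root was used once.

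The members were chosen by TMM CPM as described above. Tests used edgeR 4.0.16 (quasi-likelihood, TMM; R 4.3.3, limma 3.58.1) on the deposited counts of 32777 genes whose mean count, with library totals made equal, was 10 or more, and all 25 members were tested. Terms were the plant line and the 7 conditions, additive, with 6 residual degrees of freedom and a biological coefficient of variation of 22.2%. The line is a term because the members differ by line. No condition has a replicate library, so p-values treat the lines as replicates of a condition and cover only the spread not taken up by these terms, and a response that differs between the lines adds to that spread. P-values are two-sided with Benjamini-Hochberg adjustment over all genes tested, with a threshold of 0.05. A standard error is the absolute log2 change over the root of the quasi-likelihood F statistic.

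DESeq2 1.42.0, other scalings and filters, and each library left out in turn were alternatives. Figures were drawn with Python 3.11.15 and matplotlib 3.10.9. The tests were tested on simulated data. Those data held no difference between the lines for the contrasts, and counting error only for the rule. They therefore do not cover a response that differs between the lines. The members, and the choices of test, were made with earlier results of these data known. Models named were those on a contig with at least 3 members, the 2 per direction with the largest difference or the highest mean CPM, those nearest the limit, the 2 largest called changes per contrast and direction, and the 2 most even and 2 most uneven per direction. The other members are given to account for all 25, and non-members besides those nearest the limit were chosen after their values were seen.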

Additional observations from a re-analysis of the deposited data

Results flagged for a closer look

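The gene model LjT44J06.210.r2.d went opposite ways with nodule age in the lines. From 5 to 10 dai its log2 level (CPM plus 0.1) changed by -1.20 with MAFF303099 and -0.24 with TONO in MG20, and by 1.33 and 1.26 in apn1. Both MG20 strains moved down and both apn1 strains up. This difference between the lines was not tested, and each value is from 1 library per day.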

How the results depend on the processing

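With other scalings the rule found 18 higher and 7 lower members, but under total count scaling only 17 of the 18 were the same. Leaving out the pair of roots also kept 17 of the 18. Adding 0.5 CPM gave 12 higher and 6 lower members. With 1 CPM added there were 10 higher members, with a 2-fold limit 7, with a limit under 1.5-fold 33, and with a mean of at least 5 CPM 7 higher and 1 lower, the latter being 1 on chr2.CM0065. With 1 pair left out there were 18 to 24 higher and 7 to 11 lower members, 11 without the TONO pair of 5 dai, and 5 to 5 on that contig. With 1 library left out, edgeR's quasi-likelihood test called 3 to 10 members and 8417 to 16080 genes for nodules against roots, lowest without the MG20 root. For 10 against 5 dai it called 6 to 10 members and 11971 to 16223 genes. Between strains it called 0 to 0 members and 0 to 1023 genes, with 1023 without the MG20 and 568 without the apn1 TONO nodules of 10 dai, while DESeq2 called 676. Of the 20 calls of members, 4 passed under all alternatives in which they were tested (LjSGA_041632.2 was not tested with a mean count of at least 50) and 16 were lost under at least 1. The sign turned for chr4.CM0007.980.r2.a in the fit with 1 shared root level (nodule against root -0.0746, adjusted p = 0.932 in edgeR). It also turned for chr2.CM0065.440.r2.d without the MG20 TONO nodules of 10 dai (10 against 5 dai -0.0790). The range of that change was -0.0790 to 1.57 over all single libraries left out. The cause was not tested. Counts under about 10 limit the values of chr2.CM0065.430.r2.d, chr2.CM0065.440.r2.d and chr2.CM0065.540.r2.d in apn1. Low counts in MG20, with 0 in at least 1 library each, likewise limit those of chr3.CM0005.530.r2.m, chr3.CM0634.810.r2.m and LjSGA_041632.2.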

Other observations

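A further 24 gene models were at least 1.5-fold apart in the same direction in 6 of the 7 pairs. The pair they missed was the roots for 9 of them, the TONO pair of 5 dai for 6, the MAFF303099 pair of 5 dai for 5, and the MAFF303099 pair of 10 dai and the TONO pair of 7 dai for 2 each. One of them, chr3.CM0996.1250.r2.d, named for its values, had 37 counts in the MG20 root and 42 in the apn1 root. In nodules it had 93473 to 476414 counts in MG20 and 12677 to 93029 in apn1. Its log2 difference between apn1 and MG20 was 0.07 in the roots and -2.97 to -0.86 in the nodule pairs.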
